A study of Homo sapiens with 6 samples.

Results

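The THRB and RARB locus is a stretch of 1.7 Mb on the short arm of human chromosome 3 (hg19 3:24000000-25700000). It holds the genes of 2 nuclear receptors, THRB (3:24158651-24536773, read on the minus strand) and RARB (3:25469753-25639423, read on the plus strand). Peaks of all 6 libraries that overlap this stretch were merged wherever they shared at least 1 bp, and the merged regions were followed over time. They number 137 of the 167726 regions of the whole series. The locus was chosen on earlier results from the same peak lists, in which open regions were seen to go, so its counts of lost regions are given as a description, with no test.

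Open chromatin was profiled by ATAC-seq, in which a transposase cuts and tags accessible DNA, in 22Rv1 cells, an established human prostate cancer line. Every library is labelled FOXA1_dTAG, and there are 2 each for 0 h, 1 h and 24 h. FOXA1 is a forkhead pioneer factor of luminal prostate cells, and the dTAG system fuses a protein to a tag that a degrader molecule recruits to the proteasome pathway. All 6 libraries carry the FOXA1_dTAG label, the 0 h libraries included, so no library of untagged cells enters any value here. The labels give neither the degrader and its dose nor the number of clones behind the tagged line. Nothing in them says that the 2 libraries of a time are separate cultures, and their spread may thus be only technical. Loss of FOXA1 protein is not measured by peak lists.

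THRB encodes thyroid hormone receptor beta and RARB encodes retinoic acid receptor beta. Both proteins bind DNA as heterodimers with a retinoid X receptor, sit on direct repeats of a short half-site, and switch between corepressor and coactivator complexes when their ligand binds. Retinoic acid induces RARB itself, through a response element in a RARB promoter, which makes the gene a textbook retinoid target. In the RefSeq annotation, in which RARB is longer than the span given above, no protein-coding gene lies between THRB and RARB. The next protein-coding gene on the THRB side is NR1D2, which encodes another nuclear receptor, the haem-binding repressor REV-ERB beta. TOP2B, which encodes DNA topoisomerase II beta, overlaps the end of RARB.

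One promoter entry per gene is shown because the peaks at these starts are described next. They are RefSeq sequences on GRCh38.p14, from 250 bases before to 50 bases after the annotated start, written 5′ to 3′ on the gene's own strand. THRB has 2 entries, of which the first is shown, and RARB has 4, of which the one that fits the hg19 span is shown. The RARB entry (chr3:25428013-25428312, plus strand) starts 169669 bp from the gene's end on GRCh38, against 169670 bp in the hg19 span. The THRB entry (chr3:24495659-24495958, minus strand) starts 378555 bp from the gene's end on GRCh38, against 378122 bp in the hg19 span, a difference of 433 bp. The other THRB entry is about as near, with a difference of -425 bp. Capitals mark matches to the motifs listed after the sequences.
RARB: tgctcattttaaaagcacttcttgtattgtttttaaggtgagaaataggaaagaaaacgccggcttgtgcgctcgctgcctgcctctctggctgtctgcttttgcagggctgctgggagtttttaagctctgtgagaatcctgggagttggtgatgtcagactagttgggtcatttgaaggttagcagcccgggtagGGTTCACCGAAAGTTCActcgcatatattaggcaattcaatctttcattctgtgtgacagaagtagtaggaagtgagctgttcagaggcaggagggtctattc
THRB: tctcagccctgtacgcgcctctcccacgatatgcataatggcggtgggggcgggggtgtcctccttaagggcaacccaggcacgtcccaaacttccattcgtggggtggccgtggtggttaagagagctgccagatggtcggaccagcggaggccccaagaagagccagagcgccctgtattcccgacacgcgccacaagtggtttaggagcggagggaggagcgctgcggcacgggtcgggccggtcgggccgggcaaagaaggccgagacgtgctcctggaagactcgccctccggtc

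The motifs searched on both strands were the forkhead letters TGTTTAC and TGTTTGC and the nuclear receptor half-site AGGTCA with its variants GGTTCA (as in RARB) and AGTTCA. Pairs of GNTCA in the same direction, with 5 or 6 letters between them, were searched as direct repeats of 6-base half-sites with spacing 4 or 5. In the RARB entry, GGTTCA stood at positions -53 to -48 and AGTTCA at -42 to -37, counted with the start base as 0. Together they form a direct repeat with spacing 5, which overlaps both half-sites. Of 35116 promoter entries of this length, 8.62% held GGTTCA, 10.4% held AGTTCA, 13.8% held AGGTCA, 0.729% held a repeat with spacing 5 and 0.672% one with spacing 4. Of the RARB entries not shown, the one at chr3:25340552-25340851 held AGGTCA and the one at chr3:25458060-25458359 held AGTTCA on the minus strand. Neither THRB entry held any of these letters. Neither forkhead motif was found in any of the 6 entries of the 2 genes, against 3.42% of all entries with TGTTTAC and 3.89% with TGTTTGC; a missing match says only that these letters are not in this window. The 2 starts also differ in base composition. G and C made up 65.7% of the THRB entry, with 26 CpG dinucleotides, 72.0% of the other THRB entry, with 35, and 46.7% of the RARB entry, with 7. The median entry of all genes had 58.7% and 14 CpG.

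The THRB start held a broad open region in every library. It spanned 3:24535811-24537423, and its width in bp was 1512 and 1484 at 0 h, 1556 and 1557 at 1 h, then 1542 and 1522 at 24 h. Its fold, which is the authors' deposited MACS2 ratio of the pileup of fragments at the summit to the local background, was 7.60 and 6.73 at 0 h, 7.49 and 7.09 at 1 h, then 6.80 and 7.20 at 24 h. A fold belongs to its own list and moves with depth and with the local background, so folds are compared between libraries here only as descriptions. The folds at the 3 times overlapped, and so did every other measure of signal height or strength at 24 h. The widths did not: those at both later times lay above both 0 h widths. The recovered pileup per depth or per usual background put both 1 h libraries above both 0 h libraries. The highest fold of this region was 1.13 times the lowest, the smallest such spread among the 51 regions of the locus with a peak in all 6 libraries, whose median was 1.55. It was also the widest of the 51. The deposited −log10 q, MACS2's measure of peak strength, was 49.0 and 24.0 at 0 h, 47.9 and 41.6 at 1 h, then 30.1 and 26.8 at 24 h.

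Over the 6 libraries, the region whose folds were most like those of the THRB start was 3:25049432-25050032, with a mean absolute difference of 0.10 in log2 fold. Next came 3:24160803-24161251 near the end of THRB, with 0.14, and 3:25086743-25087134 between the genes, with 0.18. The measure compares the height of folds, not their course over time. Region 3:25049432-25050032 had folds of 9.13 and 6.73 at 0 h, then 6.26 and 6.45 at 24 h. Region 3:25086743-25087134 had 6.72 and 7.22 at 0 h, then 5.91 and 6.00 at 24 h. In both, the 24 h folds lay below both 0 h folds, while those of 3:24160803-24161251 overlapped.

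The start of the RARB span used here held no peak in any library. The nearest regions were 3:25468695-25468805, which lay 948 bp before the start and was a peak of 111 bp with a fold of 4.05 in 0 h replicate 2 alone, and 3:25472015-25472282, which lay 2262 bp inside the gene. This second region held peaks of 155 and 196 bp with folds of 3.82 and 3.65 at 0 h and none at 1 h or 24 h. Longer RARB transcripts exist: the RefSeq gene is 768612 bp long, against 169671 bp in the span used here. Their starts fall in the stretch called between THRB and RARB, or between the genes, here. Regions in it can thus lie within the longer RARB gene. The RARB entry at chr3:24829071-24829370 starts 598941 bp further from the gene's end than the span does. Region 3:24870587-24872003, named after its values were seen, has its middle at -598.458 kb from the start of the span. It held a peak in every library. Its folds were 7.75 and 10.4 at 0 h, 10.3 and 8.62 at 1 h, then 8.98 and 7.96 at 24 h. The longer starts were not placed, since coordinates were not carried from one build to the other.

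In the locus, peaks numbered 97 and 100 at 0 h, 87 and 88 at 1 h, then 74 and 89 at 24 h. The mean was 98.5 ± 2.12 at 0 h, 87.5 ± 0.707 at 1 h and 81.5 ± 10.6 at 24 h (SD, n = 2 each). Both later times lay below 0 h in number, while the 24 h libraries differed from each other by more than the 2 libraries of any other time. Whole lists changed too. Their lengths in peaks were 118259 and 125396 at 0 h, 110661 and 117942 at 1 h, then 101755 and 114362 at 24 h, and the relative depth recovered from their background was 10.4 and 8.24 tags per kb at 0 h, 8.14 and 8.62 at 1 h, then 7.33 and 7.04 at 24 h. With every list reduced to its strongest 101755 peaks, the peaks in the locus numbered 80 and 72 at 0 h, 73 and 75 at 1 h, then 74 and 74 at 24 h, so the times then differed by less than the 0 h libraries did from each other. The part of depth in the full counts was not tested. Peaks with a −log10 q of at least 10, called strong here, numbered 50 and 39 at 0 h, 29 and 35 at 1 h, then 28 and 28 at 24 h. Strong peaks were thus fewer at both later times than in either 0 h library. Their share of the locus peaks was 51.5% and 39.0% at 0 h, 33.3% and 39.8% at 1 h, then 37.8% and 31.5% at 24 h. Over whole lists it was 54.6% and 48.8%, then 50.0% and 50.5%, then 52.2% and 46.6%. The shares in the locus at 0 h and 1 h overlapped, and the part of depth in these counts was not tested either.

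The length of the locus under peaks, in bp, was 40678 and 32112 at 0 h, 37807 and 36154 at 1 h, then 27139 and 31563 at 24 h. The median peak width in bp was 351 and 285 at 0 h, 347 and 327 at 1 h, then 285.5 and 277 at 24 h. The 24 h libraries covered less than any other library. The shortest peak of a list, which follows the fragment length that MACS2 estimates, was (in bp) 155 and 111 at 0 h, 172 and 160 at 1 h, then 147 and 136 at 24 h, and its part in the widths was not tested. The median fold in the locus was 6.49 and 6.18 at 0 h, 5.39 and 6.31 at 1 h, then 6.26 and 5.74 at 24 h, ranges that overlap.

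**Figure D1:**
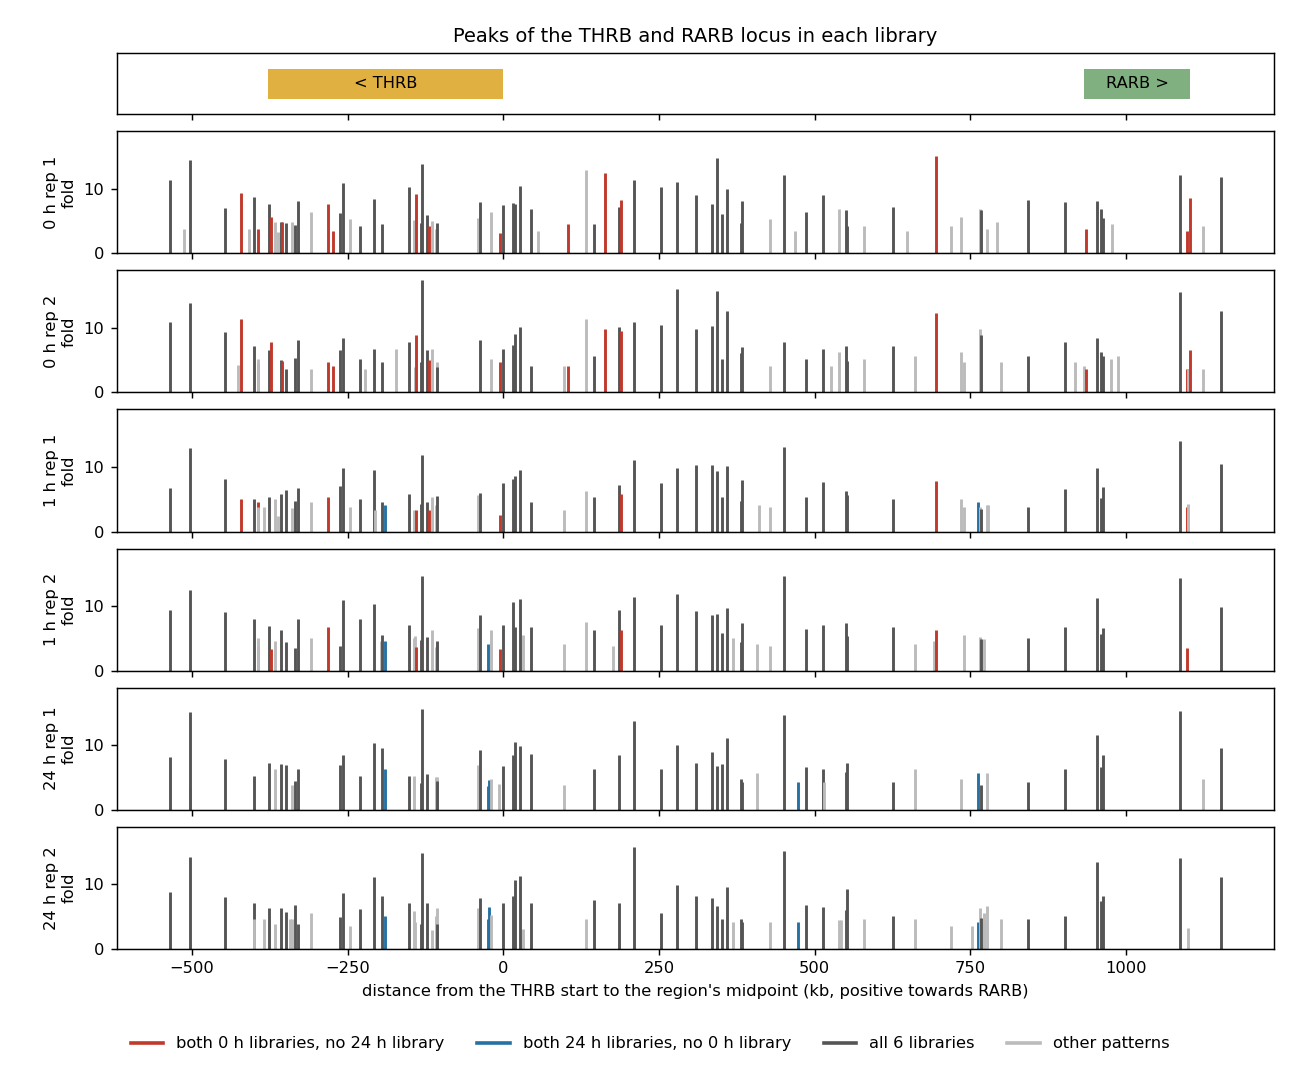
Folds of all peaks of the locus, 1 panel per library, over the distance in kb from the THRB start to the middle of each region, with positive distances towards RARB. Bars are coloured by pattern, and the top panel gives the spans of THRB and RARB; the 16 red bars of regions lost by 24 h lie on both genes, between them and beyond the end of THRB, and the 5 blue bars of gained regions lie on THRB and between the genes.

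Regions were dense on THRB. Its span held 47 of the 137 regions, or 12.4 per 100 kb, against 8.06 per 100 kb over the whole locus. The RARB span held 12, or 7.07 per 100 kb, and the 932.98 kb between the 2 gene starts held 63, or 6.75 per 100 kb. A further 13 lay beyond the end of THRB and 2 beyond the end of RARB. The widest stretch without a peak in any library was 100.366 kb long and lay within RARB, before 3:25623566.

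Of the 137 regions, 51 (37.2%) held a peak in all 6 libraries, against 43.3% of all regions of the series. Another 33 regions (24.1%) held a peak in 1 library only, against 22.5% of all regions. In the locus these were 9 and 8 in the 0 h libraries, 3 and 4 at 1 h, then 3 and 6 at 24 h. That split was not counted over all regions. The 51 kept regions were spread over the locus, with 17 on THRB, 4 on RARB and 25 between the genes.

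The 5 regions with the highest mean fold at 0 h lay on THRB, on RARB and outside both genes. The highest, 3:24406584-24407062 on THRB, had folds of 13.9 and 17.4 at 0 h, 11.9 and 14.7 at 1 h, then 15.7 and 14.98 at 24 h, so its times overlapped. Region 3:24033678-24034257 beyond the end of THRB had 14.6 and 13.9 at 0 h, 13.1 and 12.6 at 1 h, then 15.3 and 14.3 at 24 h. Region 3:25623566-25624234 on RARB had 12.2 and 15.6 at 0 h, 14.1 and 14.4 at 1 h, then 15.4 and 14.1 at 24 h. These 3 were about as high at 24 h as at 0 h, while the other 2, 3:24879598-24880446 and 3:25230461-25231280, both between the genes, were lower or without a peak at 24 h and are described with their groups.

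The comparison of 1 h with 0 h asks which regions go soon after degradation is set off, and that of 24 h with 0 h asks the same of the late state. The 2 comparisons share the 0 h libraries. A lost region is one present in both libraries of the earlier time and absent from both of the later time, and a gained region is the reverse. At 1 h, 9 of the 78 regions with a peak in both 0 h libraries were lost (11.5%), against 7.48% of all such regions. Of the 71 regions with a peak in both 1 h libraries, 1 was gained (1.41%), against 3.93%. At 24 h, 16 of the 78 were lost (20.5%), against 13.1% of all, and 5 of 65 were gained (7.69%), against 6.54%. From 1 h to 24 h, 9 of 71 were lost (12.7%), against 6.42%, and 2 of 65 were gained (3.08%), against 3.85%. Because the locus was picked on these contrasts, nothing is read from its shares of lost regions lying above those of all regions.

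The counts rest on both libraries of a time, and leaving out 1 library, which asks fewer libraries to meet the definition, moved them in the locus and raised the shares over all regions too. Without 0 h replicate 1, 18 of 93 regions were lost at 1 h, against 15.7% of all, and 27 of 93 at 24 h, against 21.4%. Without 0 h replicate 2, 19 of 96 were lost at 1 h, against 13.6%, and 26 of 96 at 24 h, against 19.7%. Between 24 h and 1 h, 14 of 84 were lost without 1 h replicate 1, against 14.8%, 16 of 85 without 1 h replicate 2, against 13.5%, and 14 of 71 without 24 h replicate 2, against 13.9%.

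Among regions gained at 24 h against 0 h, the count was 15 of 86 without 24 h replicate 1, against 14.8% of all, 9 of 72 without 24 h replicate 2, against 10.7%, and 11 of 65 without 0 h replicate 1, against 10%. At 1 h, 9 of 84 were gained without 1 h replicate 1, against 11.3%, 7 of 85 without 1 h replicate 2, against 10%, 5 of 71 without 0 h replicate 1, against 8.03%, and 3 of 69 without 0 h replicate 2, against 7.54%. From 1 h to 24 h, 12 of 86 were gained without 24 h replicate 1, against 12.3%, 6 of 72 without 24 h replicate 2, against 8.2%, 5 of 65 without 1 h replicate 1, against 6.63%, and 6 of 65 without 1 h replicate 2, against 7.88%. These counts of gained regions are small.

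**Figure D2:**
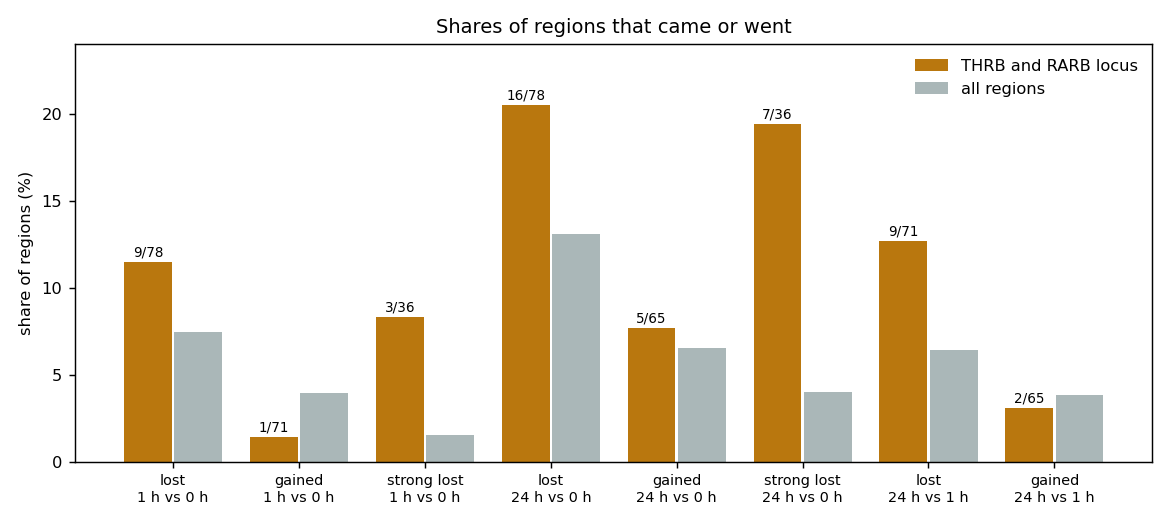
Share in percent of regions lost or gained in each comparison, for the THRB and RARB locus beside all regions of the series, with the locus counts above the bars. The locus bars for strong regions lost stand for 3 of 36 at 1 h and 7 of 36 at 24 h. Nothing is read from their height above the bars of all regions, since the locus was picked on these contrasts. At 24 h against 0 h, the share gained was 7.69% in the locus and 6.54% over all regions. In the other comparisons the share gained in the locus was below that of all regions.

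The 16 regions lost at 24 h comprised 6 already absent at 1 h, 3 present in just 1 of the 1 h libraries and 7 present in both. The 9 lost at 1 h comprised 6 that were absent at 24 h too and 3 present in just 1 of the 24 h libraries. No region lost at 1 h was back in both 24 h libraries. These courses were not counted over all regions, so nothing in them is read as particular to the locus. Of the 16 lost at 24 h, 7 of 28 lay on THRB, 3 of 7 on RARB, 4 of 35 between the genes and 2 of 6 beyond the end of THRB. Each total counts the regions there with a peak in both 0 h libraries, of which 13.1% were lost over the whole series. The difference between segments was not tested. The losses took weak and strong peaks: in the 0 h libraries the median fold of the 16 was 5.25 and 4.96, against 7.75 and 7.31 for the 51 kept regions, and their median width was 351 and 308 bp, against 486 and 344 bp.

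A strong lost region was strong in each library of the earlier time and lacked any peak, weak ones included, at the later time. In the locus, 36 regions were strong in both 0 h libraries. Of these, 3 were lost at 1 h (8.33%), against 1.51% of all strong regions, and 7 at 24 h (19.4%), against 4.02%. No strong region was gained, neither of the 26 strong in both 1 h libraries, against 0.0338% of all, nor of the 24 strong in both 24 h libraries, against 0.748%. The threshold fell between 3:24384908-24385261, whose lower 0 h −log10 q was 10.7, and 3:25086743-25087134, with 9.73. The 7 regions were also without a peak at 24 h when windows around the summits were merged in place of whole peaks. Lists of one length and a minimum −log10 q of 5 only take peaks away. These 2 settings could not give such a region a 24 h peak, so nothing is read from them here. With strong set at a −log10 q of at least 20, 14 regions were strong in both 0 h libraries. Of these 14, none was lost at 1 h, against 0.415% of all, and 2 at 24 h, against 1.59%.

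The strong lost region with the highest fold lay between the genes at 3:25230461-25231280. Its folds were 15.1 and 12.4 at 0 h and 7.90 and 6.31 at 1 h, with widths in bp of 637 and 601 at 0 h, 723 and 701 at 1 h, and it lacked a peak at 24 h. Both 1 h folds lay below both 0 h folds while the peak was no narrower. Region 3:24725151-24725519, also between the genes, followed the same course, with folds of 8.37 and 9.62 at 0 h, 5.81 and 6.39 at 1 h, then no peak at 24 h. On THRB, 3:24395566-24396117 had folds of 9.27 and 8.97 at 0 h, 3.31 and 3.63 at 1 h, then none at 24 h. Its 1 h peaks were near the low end of the folds of the locus. Beyond the end of THRB, 3:24114920-24115866 had folds of 9.47 and 11.4 and widths of 947 and 685 bp at 0 h, and at 1 h a single peak in replicate 1 with a fold of 5.00 and a width of 345 bp.

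The other 3 strong lost regions already had no peak at 1 h. Region 3:24699477-24700049 between the genes had folds of 12.5 and 9.92 and widths of 573 and 427 bp at 0 h. Region 3:25639059-25639843 spans the end of RARB at 3:25639423, on the side where TOP2B overlaps it in RefSeq, and had folds of 8.61 and 6.65 and widths of 696 and 522 bp at 0 h. Region 3:24181481-24181924 on THRB had folds of 4.81 and 4.84 and widths of 423 and 410 bp at 0 h. The last of these sits beside 3:24179342-24180011, a region named after its values were seen, which kept a peak in every library, with folds of 4.94 and 5.06 at 0 h, 5.81 and 6.31 at 1 h, then 7.09 and 6.36 at 24 h. Of these neighbours on THRB, the first was without a peak from 1 h on, and the second had folds above both 0 h folds in every later library; by pileup or −log10 q its 24 h values overlapped those at 0 h.

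**Figure D3:**
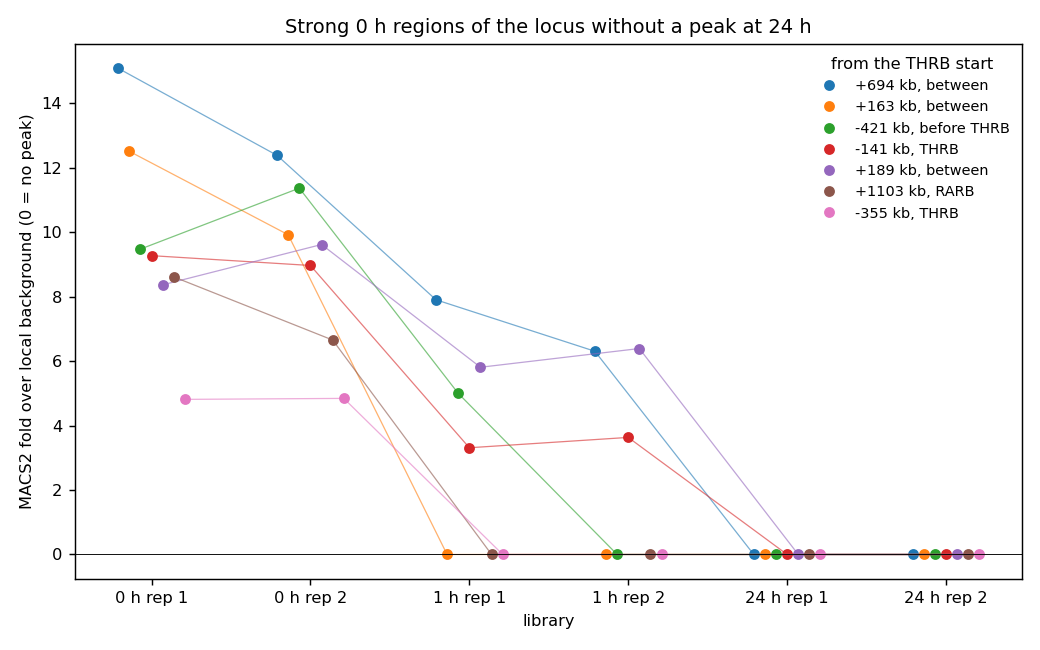
Deposited fold in each library of the 7 strong regions of the locus lost at 24 h, with 0 for no peak; the legend gives the distance from the THRB start and the segment. All 7 are at 0 in both 24 h libraries, 3 of them already in both 1 h libraries, and those with a peak at 1 h have lower folds there than at 0 h.

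Of the 36 strong 0 h regions, 27 held a peak in all 6 libraries. The 2 that were neither kept in all nor lost at 24 h, named after their values were seen, each kept a peak in 24 h replicate 2. Region 3:24669992-24670633 had folds of 12.9 and 11.5 at 0 h, 6.25 and 7.57 at 1 h, and 4.60 in that library. Region 3:25301338-25301752 had 6.94 and 9.93 at 0 h, 3.89 and 5.17 at 1 h, and 6.29 in that library. The 9 lost regions that were not strong had 0 h folds of 3.23 to 7.83.

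The 5 regions gained at 24 h were weak. Their folds at 24 h ran from 3.73 to 6.49 and their −log10 q reached 8.24 at most, so none was strong. Of the 5, 3 lay on THRB. Region 3:24513952-24514246 had folds of 4.56 and 6.49 at 24 h and none before. Region 3:24347268-24347529 was the region gained at 1 h, with folds of 4.17 and 4.62 at 1 h and 6.26 and 5.11 at 24 h. Region 3:24511759-24512065 had a peak with a fold of 4.20 in 1 h replicate 2 and folds of 3.73 and 4.60 at 24 h. Between the genes, 3:25298590-25298823 had a fold of 4.56 in 1 h replicate 1 and 5.78 and 4.09 at 24 h, and 3:25009657-25009844 had 4.33 and 4.09 at 24 h alone.

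Among the 51 regions kept in all 6 libraries, folds moved in both directions at 24 h. Both 24 h folds lay below both 0 h folds in 17 (33.3%), against 24.3% of all kept regions, and above both in 15 (29.4%), against 20%. At 1 h, 15 were lower (29.4%), against 26.7%, and 7 were higher (13.7%), against 13.8%. The median log2 ratio of 24 h to 0 h was −0.03 in the locus and −0.03 over all kept regions, and that of 1 h to 0 h was −0.08 in the locus and −0.07 over all. Of the 17 that were lower at 24 h, 11 were also lower at 1 h (64.7%), against 58.3% over all kept regions that were lower at 24 h. Of the 15 that were higher, 7 were also higher at 1 h (46.7%), against 40.7%. In the locus none was on the other side at 1 h, against 3.7% of all those lower at 24 h and 7.6% of all those higher.

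These splits depend on the measure. With the recovered pileup per relative depth in place of the fold, which moves the median log2 ratio of all kept regions by +0.26 at 1 h and +0.15 at 24 h, 6 regions of the 51 were lower and 24 higher at 1 h, against 8.64% and 54.7% of all kept regions. At 24 h, 12 were lower and 21 higher by that measure, against 15.1% and 40.6%. With −log10 q, whose median moves by −0.22 at 24 h, the counts were 13 lower and 11 higher at 1 h, against 20.5% and 20.8%, and 21 lower and 13 higher at 24 h, against 37.1% and 13.7%. With folds divided by the median of their library they were 8 and 12 at 1 h, against 18.9% and 24.3%, and 15 and 15 at 24 h, against 20.9% and 27.4%. With the pileup over the usual background pileup, added after the data were seen, they were 19 and 6 at 1 h, against 20.4% and 10.9%, but 12 and 17 at 24 h, against 15.6% and 22.4%. The 8 kept regions named next kept their direction at 24 h under each of these 4 measures.

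The largest decline among kept regions was at 3:24879598-24880446, between the genes. Its folds were 14.9 and 15.8 at 0 h, 9.35 and 8.76 at 1 h, then 6.74 and 6.66 at 24 h, so the times did not overlap. The mean at 24 h was 0.436 of that at 0 h, below the 5th percentile of 0.640 over all kept regions. Region 3:24789988-24790363 had folds of 10.3 and 10.4 at 0 h, 7.499 and 7.15 at 1 h, then 6.26 and 5.62 at 24 h. Region 3:25303712-25304427 had 6.77 and 8.91 at 0 h, 3.45 and 4.93 at 1 h, then 3.83 and 4.83 at 24 h. In both of these the 1 h folds were already below both 0 h folds. Region 3:24918954-24919606 was late by fold, with 8.17 and 7.15 at 0 h, 7.96 and 7.38 at 1 h, then 4.33 and 4.09 at 24 h. By the pileup over the usual background pileup, both its 1 h values already lay below both 0 h values. On THRB, 3:24206509-24207087 had 8.22 and 8.09 at 0 h, 6.76 and 8.08 at 1 h, then 6.26 and 3.88 at 24 h, with the 24 h libraries far apart.

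The largest gain among kept regions was on THRB at 3:24341383-24341827. Its folds were 4.58 and 4.70 at 0 h, 4.58 and 5.46 at 1 h, then 9.63 and 8.17 at 24 h, and the mean at 24 h was 1.92 times that at 0 h, above the 95th percentile of 1.46 over all kept regions. Region 3:25088614-25089246 between the genes had 4.29 and 4.95 at 0 h, 5.71 and 5.35 at 1 h, then 7.27 and 9.32 at 24 h. Region 3:24187464-24188261 on THRB had 4.75 and 3.63 at 0 h, 6.41 and 4.39 at 1 h, then 6.996 and 5.74 at 24 h. All 3 had 0 h folds below the locus median of their library, and the folds of 3:25088614-25089246 were above both 0 h folds already at 1 h.

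**Figure D4:**
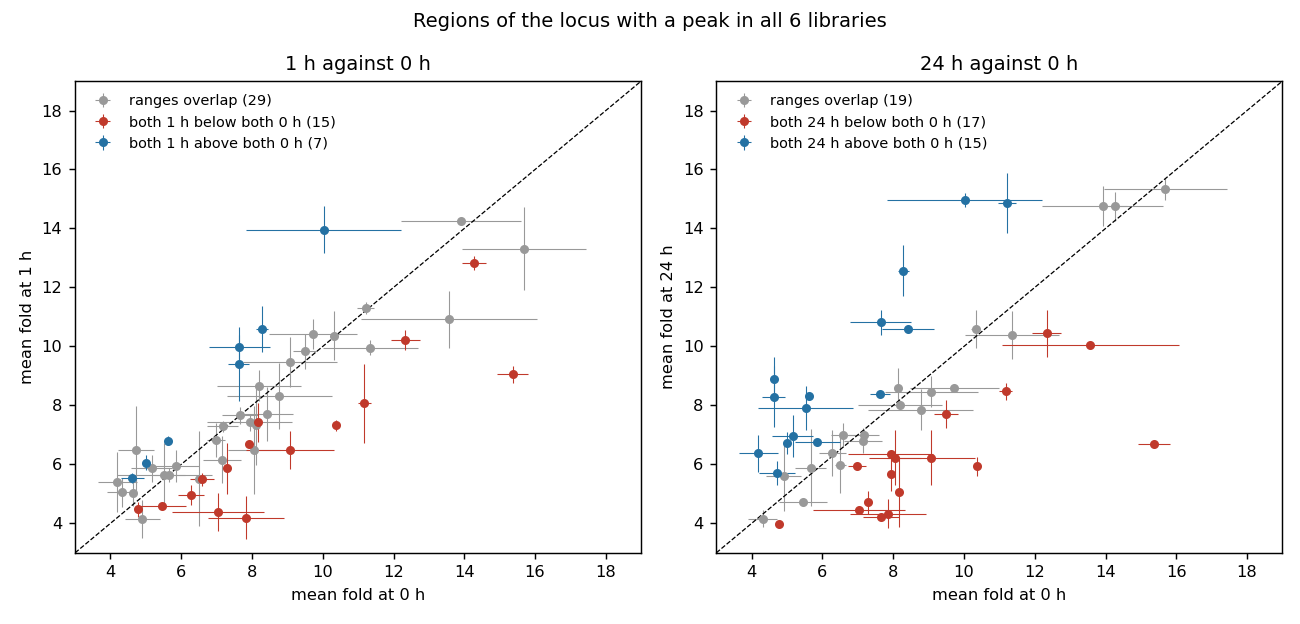
Mean fold at 1 h (left) and at 24 h (right) against the mean fold at 0 h for the 51 regions of the locus with a peak in all 6 libraries; bars span the 2 libraries and the dashed line marks equal folds. At 24 h, 17 regions lie below the line and 15 above it without overlap of the libraries, and 19 overlap.

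The direction of kept regions was also counted by segment. Over all kept regions of the series, 24.3% were lower and 20% higher at 24 h. Of the 4 kept regions of RARB, too few to read a share from, none had a lower fold at 24 h and 2 had a higher one. Of the 17 on THRB, 3 were lower and 5 higher, and of the 25 between the genes, 11 were lower and 8 higher; the difference between segments was not tested. The higher RARB regions were 3:25490261-25490968, with folds of 8.12 and 8.44 at 0 h, 9.82 and 11.4 at 1 h, then 11.7 and 13.4 at 24 h, and 3:25499669-25500275, with 5.53 and 5.73 at 0 h, 6.95 and 6.66 at 1 h, then 8.44 and 8.18 at 24 h. They lie towards the start of the RARB span used here, which leaves out the longer transcripts, were named after their values were seen, and had folds above both 0 h folds in every later library; at 24 h this held for each of the 5 measures.

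More kept regions were narrower than wider at 24 h. Both 24 h widths lay below both 0 h widths in 20 of 51 (39.2%), against 26.9% of all kept regions, and above both in 10 (19.6%), against 12%. Of the 17 regions with a lower fold at 24 h, 15 were also narrower (88.2%), against 40.7% of all kept regions with a lower fold. Region 3:24815254-24816141, named after its values were seen, had widths in bp of 795 and 660 at 0 h, 668 and 592 at 1 h, then 298 and 323 at 24 h. Its folds were 11.1 and 16.1 at 0 h, 9.96 and 11.9 at 1 h, then 10.1 and 9.97 at 24 h, and by pileup its 24 h values overlapped those at 0 h. The THRB start was among the 10 wider regions.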

How the data were processed

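Each library has its own peak list on hg19. The submitters' processing notes name MACS2, Bowtie2, fastp and FastQC; for versions, parameters, read shifting and duplicate removal, no source used here gives a statement. The deposited fold (a ratio), −log10 p, −log10 q, score and summit offset of each peak are the authors' MACS2 values. The lists hold no read counts. A whole-number pileup was recovered from each deposited fold and −log10 p, assuming a pseudocount of 1 and a Poisson p, and matched within 0.001. Relative depth is the commonest background pileup per kb of the shortest peak. Depth limits which weak peaks are found; a missing peak means none past the threshold of the list, not closed chromatin.

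Regions were built from the peaks of all 6 lists on the 22 autosomes and X (Python 3.11.15, pandas 2.3.3, numpy 2.4.6, scipy 1.17.1). Where a library had several peaks in a region, its highest fold was used and its widths were counted together. The scripts were tested on simulated data. The locus, its regions and all lists were chosen with earlier results of these data known, so no test was run. Regions named are those at the gene starts, the 5 with the highest 0 h fold, all strong lost regions, all regions gained at 24 h, and the 5 lowest and 3 highest kept regions by the ratio of 24 h to 0 h; others are said to be named after their values were seen. A list of pathway genes was planned but not run, since no hg19 annotation was used here. Promoter entries are RefSeq's, on GRCh38.p14, and no coordinate was carried between builds.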

Additional observations from a re-analysis of the deposited data

How the results depend on the processing

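No paired analysis was possible because the results come from no test; the labels do not say what a replicate number stands for. Each count was recomputed under the alternatives. Apart from leaving out a library, 47 values stayed within 1.5 times the value reported and 18 moved further; the cause was not tested. With peaks counted only at a −log10 q of at least 10, the lists held 50 and 39 peaks in the locus at 0 h, 29 and 35 at 1 h, then 28 and 28 at 24 h. Fewer regions could then be counted: 3 of 24 were gained at 24 h against 0 h, against 6.5% of all, and 4 of 26 were lost at 24 h against 1 h, against 7.02%. With a minimum of 5, 4 of 47 were gained at 24 h against 1 h, against 4.45%. With lists of one length, 3 of 61 were gained at 1 h against 0 h, against 5.21%. With strong set at 5, 1 strong region of 47 was gained at 24 h, against 3.61%. At 20, 0 of 14 were lost at 1 h, against 0.415%, and 2 of 14 at 24 h, against 1.59%. Among kept regions at 1 h, pileup per relative depth gave 6 lower and 24 higher, fold over the library median 8 lower and 12 higher, and −log10 q 11 higher.

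Leaving out each library in turn, so that fewer libraries had to meet a definition, gave 12 to 19 regions lost and 3 to 9 gained at 1 h against 0 h. It gave 18 to 27 lost and 6 to 15 gained at 24 h against 0 h, and 9 to 16 lost and 5 to 12 gained at 24 h against 1 h. Over all regions, the shares lost in these 3 comparisons were 11.3% to 15.7%, 16.7% to 21.4% and 9.96% to 14.8%. The shares gained were 7.54% to 11.3%, 10% to 14.8% and 6.63% to 12.3%, in the same order. Strong regions lost ranged over 3 to 4 at 1 h, against 2.12% to 2.64% of all strong regions. At 24 h they ranged over 7 to 9, against 4.87% to 6.31%. The locus then held 36 to 50 strong 0 h regions. Strong regions gained at 24 h stayed at 0 of 24 to 28, against 1.35% to 1.52% of all.

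With 2 libraries per time, no sample can be judged to stand apart from its group. Depth was highest in 0 h replicate 1 and lowest at 24 h, so weak peaks limit what the counts of lost regions can show.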

Other observations

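All 12 regions on the RARB span can be followed. Of these, 4 held a peak in all 6 libraries, against 43.3% of all regions. Of the 7 with a peak in both 0 h libraries, 3 were lost at 24 h, against 13.1% of all such regions. These counts are too small to read a share from. Among the 3 was 3:25634032-25634384, a weak region with folds of 3.47 and 3.58 at 0 h, 3.76 and 3.54 at 1 h, then none at 24 h. Another 3 were peaks in a single 0 h library, 3:25513465-25513622 in replicate 1 with a fold of 4.58, and 3:25512633-25512821 and 3:25523025-25523199 in replicate 2 with 5.22 and 5.74. The last 2 held weak peaks in 1 library at each of 2 times: 3:25635494-25635827 had 4.28 in 1 h replicate 1 and 3.22 in 24 h replicate 2, and 3:25636687-25636878 had 3.62 in 0 h replicate 2 and 3.17 in 1 h replicate 1. The fourth kept region, 3:25495952-25496422, had folds of 6.93 and 6.24 at 0 h, 5.28 and 5.72 at 1 h, then 6.58 and 7.42 at 24 h.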
